A study of Mus musculus with 10 samples.

Results

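Asic2, Asb9, Nptx2, Klhdc8a and Gem are 5 genes with large rises in pancreatic islets of exercised mice. They were chosen from outside the stress and glucocorticoid programs of that response, and their independence of those programs was not tested. They were found by matching their symbols to Ensembl identifiers, and all 5 were present among the 52178 genes of the count table and passed the filter on low counts. The rises over all libraries were the values used to choose them, so the exercise and sedentary levels below are a description and carry no test. Islets came from C57Bl/6 male mice that were retired breeders, with 5 RNA-seq libraries from sedentary animals (sedentary 1 to 5) and 5 from trained animals (exercise 6 to 10). Training was 1 h of treadmill running on 5 days of each week over 2 weeks, with the belt at 17 cm/s and a slope of 5 degrees, after 3 days to get used to the treadmill. All islets were freed with collagenase, picked by hand and placed in medium with 11 mM glucose. No allele or transgene is given for either group, and the labels do not say whether each library is a separate animal. The p-values therefore speak only of variation among these libraries, part of which may be technical.

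Beta cells fire electrically like neurons and share many of their genes. Glucose closes potassium channels, the membrane depolarises, calcium enters through voltage-gated channels and insulin granules fuse. Gem is a small GTPase of the RGK family that binds the beta subunits of those calcium channels and lowers calcium entry. Asic2 is a subunit of the acid-sensing ion channels, proton-gated sodium channels best known from sensory and brain neurons. Nptx2 (also called Narp) is a secreted pentraxin induced by activity in neurons, where it gathers AMPA-type glutamate receptors at synapses. Asb9 is the substrate-binding part of a ubiquitin ligase built on the scaffold Cul5, and brain-type creatine kinase is a known target. Klhdc8a carries kelch repeats, a fold that serves in protein binding.

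Libraries held between 15081922 and 23222704 counts. Levels are given as CPM, counts scaled to a common library size after correction by TMM (the trimmed mean of M-values, which sets most genes equal on average). Sedentary 1 and 2 stood apart. A list of 18 genes shared by islet endocrine cells summed to 1102 CPM in sedentary 1 and 4318 in sedentary 2. It summed to between 13092 and 17048 CPM in sedentary 3 to 5 and between 15475 and 19067 in the exercise libraries. The beta cell list of 8 genes summed to 8034 and 36857 CPM in sedentary 1 and 2, between 133699 and 192393 in sedentary 3 to 5, and between 131605 and 186824 in exercise. A list of 12 intestinal genes, all of which fell by the edgeR test, summed to 11724 and 17373 CPM in sedentary 1 and 2, 2688 to 3484 in sedentary 3 to 5 and 265 to 706 in exercise. A list of 12 acinar genes summed to 47045 to 96329 CPM in sedentary and 105729 to 280940 in exercise libraries, with exercise 9 the highest. The summed intestinal, acinar and Schwann cell levels differed between the groups (two-sided exact permutation p = 0.00794 for each, which 5 against 5 cannot go below, or 0.0317 adjusted over 12 lists). With 1 library left out the exact permutation call was lost for the intestinal and Schwann sums without any 1 exercise library and for the acinar sum without any 1 library but sedentary 4 or exercise 8 (highest adjusted p = 0.190, 0.357 and 0.0952), while the groups stayed apart. The endocrine sum did not pass (exact permutation, adjusted p = 0.143), but passed without sedentary 4 and as mean log2 CPM, 1.36 higher in exercise (adjusted p = 0.0476 for either). The part that these shifts in tissue makeup have in the levels below was not tested beyond the endocrine-scaled and 8-library values given with them. In bulk RNA, fewer cells of a type and less RNA per cell cannot be told apart.

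Asic2 (ENSMUSG00000020704) was low in every sedentary library and high in every exercise library. It had 0.239, 1.09, 2.88, 2.46 and 3.04 CPM in sedentary 1 to 5, and 11.6, 11.8, 15.4, 19.6 and 14.5 CPM in exercise 6 to 10. The lowest exercise library lay 3.83 times above the highest sedentary one. Sedentary 1 and 2, the libraries poor in endocrine transcripts, were the lowest, with 4 and 20 counts behind them. Group means were 1.94 ± 1.22 and 14.6 ± 3.25 CPM (SD, n = 5 each), a log2 fold change of 2.90 ± 0.51 (SE of the edgeR fit). Without sedentary 1 and 2 it was 2.41.

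Asb9 (ENSMUSG00000031384) was likewise lowest in sedentary 1 and 2, and 4 of its 5 exercise libraries lay close together. Its levels were 0.0598, 0.218, 0.721, 0.907 and 0.979 CPM in sedentary 1 to 5, and 4.30, 4.95, 4.60, 4.32 and 2.34 CPM in exercise 6 to 10. Exercise 10 lay below the other 4 exercise libraries and was still 2.39 times above the highest sedentary library. Sedentary 1 held 1 count and sedentary 2 held 4, so that these levels are poorly determined. The means were 0.577 ± 0.415 and 4.10 ± 1.02 CPM (SD, n = 5 each), with a log2 fold change of 2.79 ± 0.55 (SE), and 2.25 without sedentary 1 and 2.

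Klhdc8a (ENSMUSG00000042115) varied more among the exercise libraries than Asic2 and Asb9 did. It had 0.837, 1.09, 2.44, 2.63 and 1.66 CPM in sedentary 1 to 5, and 7.21, 10.8, 19.2, 7.41 and 15.1 CPM in exercise 6 to 10. Exercise 8 and 10 were highest and exercise 6 and 9 lowest, a spread of 2.67 times within the group, and no exercise library reached down to the sedentary range. Means were 1.73 ± 0.796 and 12.0 ± 5.18 CPM (SD, n = 5 each), with a log2 fold change of 2.78 ± 0.40 (SE), and 2.44 without sedentary 1 and 2.

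Nptx2 (ENSMUSG00000059991) varied most among the exercise libraries. It had 0.418, 0.655, 0.388, 0.518 and 0.196 CPM in sedentary 1 to 5, and 3.35, 3.45, 1.27, 5.02 and 2.20 CPM in exercise 6 to 10. Exercise 9 lay 3.97 times above exercise 8, and exercise 8 lay 1.93 times above the highest sedentary library, which was sedentary 2. Here the libraries poor in endocrine transcripts were not the lowest of their group. The 5 sedentary libraries held 42 counts in all and the 5 exercise libraries 258. Means were 0.435 ± 0.170 and 3.06 ± 1.42 CPM (SD, n = 5 each), with a log2 fold change of 2.79 ± 0.43 (SE), and 3.04 without sedentary 1 and 2.

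Gem (ENSMUSG00000028214) had the smallest fold difference of the 5. It had 3.65, 1.47, 4.38, 4.28 and 3.87 CPM in sedentary 1 to 5, and 9.50, 10.4, 9.78, 17.5 and 8.25 CPM in exercise 6 to 10. Sedentary 2 was low and exercise 9 high against the close values of the others, and the lowest exercise library lay 1.88 times above the highest sedentary one. Means were 3.53 ± 1.19 and 11.1 ± 3.65 CPM (SD, n = 5 each), with a log2 fold change of 1.65 ± 0.32 (SE), and 1.43 without sedentary 1 and 2.

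**Figure D1:**
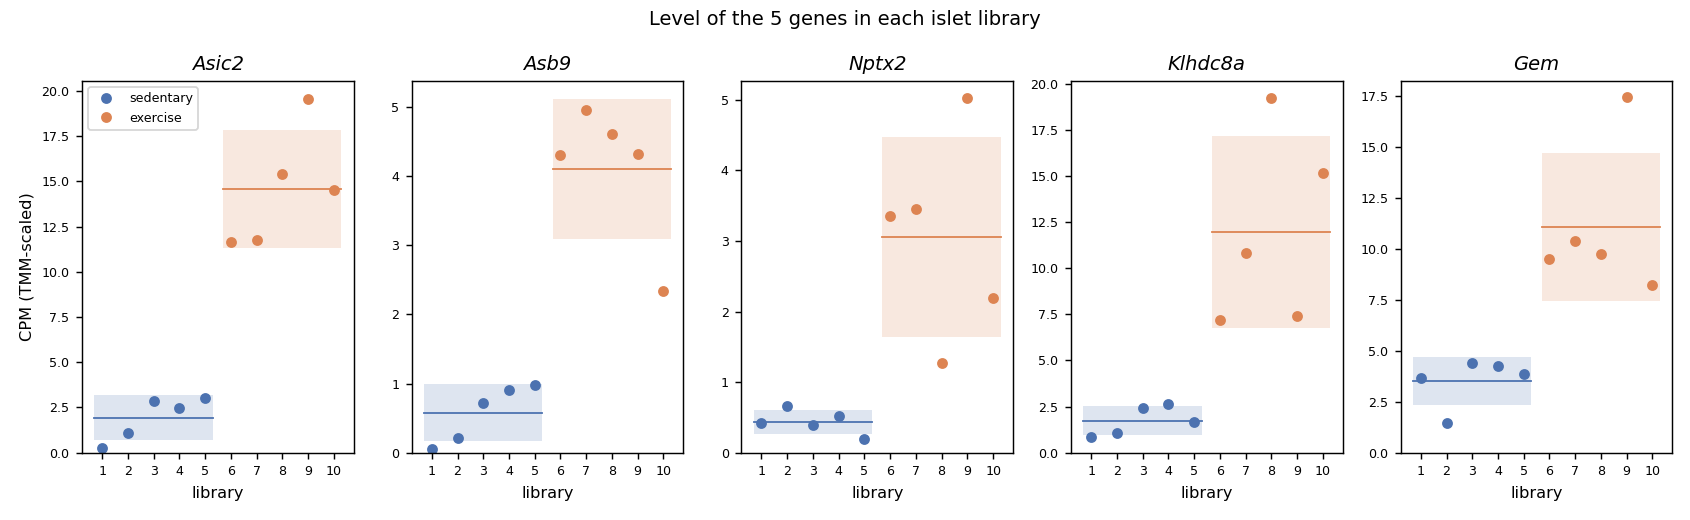
Level of each of the 5 genes (CPM, vertical axis from 0) in the 10 libraries (horizontal axis, 1 to 5 sedentary in blue, 6 to 10 exercise in orange); lines are group means and bands ± 1 SD, n = 5. No exercise library overlaps the sedentary range for any of the 5 genes, and exercise 9 is the highest for Asic2, Nptx2 and Gem but not for Asb9 or Klhdc8a.

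All 5 genes thus had groups that did not overlap in CPM. Of all 15298 genes tested, 6.24% were higher without overlap, or 8.43% without sedentary 1 and 2, where all 5 members again did not overlap, and nothing can be read from the comparison because the same contrast chose the members. Exercise 9, where Asic2, Nptx2 and Gem were highest, also had the highest acinar sum and the smallest TMM factor, 0.669 against 0.845 to 1.06 in the other exercise libraries.

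The 250 bases before the start of transcription are shown for the members with an entry in the RefSeq promoter table. These were Asic2 (2 start sites), Asb9 and Klhdc8a. Capitals mark the boxes CCAAT and GGGCGG, searched on both strands, so that a box on the opposite strand reads ATTGG or CCGCCC.
Asic2 start 1 (GRCm38.p6, chr11:81152904-81153153, minus strand): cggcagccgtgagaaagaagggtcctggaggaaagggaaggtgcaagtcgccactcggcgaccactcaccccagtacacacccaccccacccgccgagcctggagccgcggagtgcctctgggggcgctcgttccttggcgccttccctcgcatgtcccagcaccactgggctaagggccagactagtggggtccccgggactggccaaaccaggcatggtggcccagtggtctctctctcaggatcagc
Asic2 start 2 (GRCm38.p6, chr11:81968397-81968646, minus strand): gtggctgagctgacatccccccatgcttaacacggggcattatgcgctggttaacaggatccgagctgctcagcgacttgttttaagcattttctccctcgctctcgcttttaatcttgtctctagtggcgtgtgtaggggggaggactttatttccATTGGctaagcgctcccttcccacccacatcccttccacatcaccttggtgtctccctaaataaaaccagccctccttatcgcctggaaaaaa
Asb9 (GRCm38.p6, chrX:164497653-164497902, plus strand): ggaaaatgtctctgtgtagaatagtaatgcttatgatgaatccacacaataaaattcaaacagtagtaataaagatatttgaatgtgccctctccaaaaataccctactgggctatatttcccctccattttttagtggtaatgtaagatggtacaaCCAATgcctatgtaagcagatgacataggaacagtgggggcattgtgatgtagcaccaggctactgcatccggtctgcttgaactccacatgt
Klhdc8a (GRCm38.p6, chr1:132298376-132298625, plus strand): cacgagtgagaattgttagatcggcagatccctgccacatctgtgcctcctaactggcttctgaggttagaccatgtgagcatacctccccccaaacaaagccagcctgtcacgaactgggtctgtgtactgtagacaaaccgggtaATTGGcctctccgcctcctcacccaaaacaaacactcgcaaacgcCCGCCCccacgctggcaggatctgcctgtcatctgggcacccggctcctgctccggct

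These positions are those of RefSeq on GRCm38.p6, and no build is recorded for the counts. A CCAAT box was found in 3 of the 4 windows, its first base 93 bases before the start for Asic2 start 2 and Asb9 and 103 for Klhdc8a. For Asb9 the bases just after this RefSeq start are in none of its GENCODE transcripts, unlike those of the other 3 starts, and whether islets use it was not tested. Of 32851 windows of this length, 33.8% held it. A GC box (GGGCGG) was found for Klhdc8a alone, and 32.7% of windows held it. The windows held no cAMP response element (TGACGTCA, 1.55% of all windows), no AP-1 site (TGANTCA, 6.75%), no glucocorticoid response element (its full palindrome, 0.387%) and no TATAAA box (12.4%). Asic2 start 1 is rich in G and C (66.4%) and the Asb9 window poor (40.0%).

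Levels can be set side by side between genes only per length of transcript. Per kilobase of merged GENCODE exons, mean exercise levels were 5.27 ± 1.73 CPM for Gem, 3.60 ± 0.894 for Asb9, 3.42 ± 0.762 for Asic2, 2.80 ± 1.21 for Klhdc8a and 1.21 ± 0.560 for Nptx2 (SD, n = 5). Asb9, Asic2 and Klhdc8a differed by less than their spread over libraries. Sedentary levels on the same scale were 1.68 ± 0.564 for Gem, 0.507 ± 0.364 for Asb9, 0.456 ± 0.287 for Asic2, 0.406 ± 0.186 for Klhdc8a and 0.172 ± 0.0669 for Nptx2. Gem was therefore first and Nptx2 last in both groups. Lengths were those of the annotation at hand, since the lengths behind the authors' counting are unknown here, and with the longest transcript in place of merged exons Asic2 (4.24) stood above Asb9 (3.60) in exercise.

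Counting the members against the endocrine list instead of the whole library separated them into distinct behaviours. Asb9 had 5.43, 5.06, 5.51, 5.32 and 6.16 counts per 100000 endocrine marker counts in sedentary 1 to 5, although its CPM in the same libraries spanned 16.4 times. Asic2 had 21.7, 25.3, 22.0, 14.4 and 19.1 on that scale. For both genes sedentary 1 and 2 were no longer low. In sedentary 1 the 95% counting interval was wide, 0.137 to 30.2 for Asb9 (exact Poisson, counting error only). In exercise 6 to 10 Asb9 had 24.6, 27.3, 24.1, 27.9 and 14.8, and Asic2 66.4, 64.9, 80.9, 127 and 91.5. Every exercise library again lay above every sedentary library for this pair, by at least 2.40 times for Asb9 and 2.57 times for Asic2.

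The other 3 members did not follow the endocrine list in this way. Gem had 331 counts per 100000 endocrine marker counts in sedentary 1, against 24.3 to 34.1 in sedentary 2 to 5 and 51.3 to 113 in exercise. Klhdc8a had 76.0 in sedentary 1 and 25.3 in sedentary 2, 10.5 to 18.6 in sedentary 3 to 5 and 41.2 to 101 in exercise. Nptx2 had 38.0 and 15.2 in sedentary 1 and 2, 1.23 to 3.04 in sedentary 3 to 5 and 6.64 to 32.5 in exercise. Transcripts of these 3 genes were thus present in sedentary 1 out of proportion to its endocrine transcripts. Counts there were 61 for Gem, 14 for Klhdc8a and 7 for Nptx2. Their 95% counting intervals were 253 to 425, 41.5 to 127 and 15.3 to 78.2 on this scale. The groups did not overlap for 2 of 5 members on this scale, beside 0.32% of all genes tested that were higher without overlap. Without sedentary 1 and 2 the groups were apart for all 5 members, beside 2.33% of all genes, and the same contrast chose the members in either case.

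**Figure D2:**
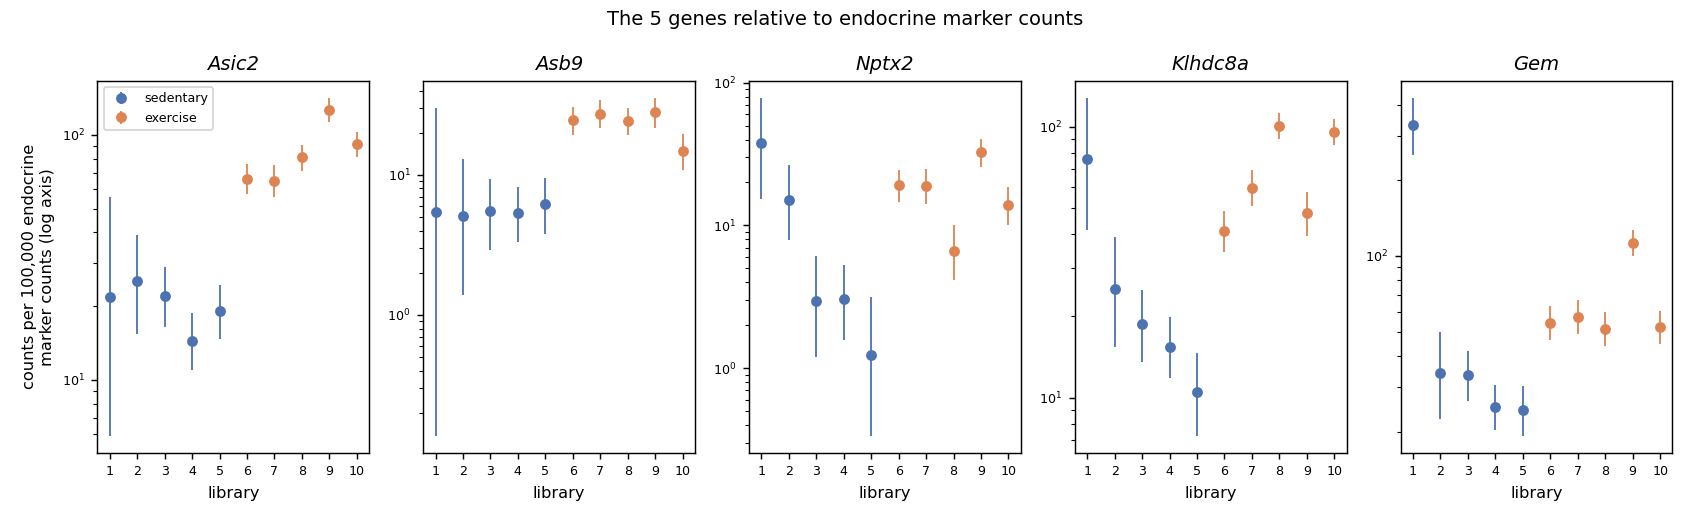
Counts of each gene per 100000 counts of the 18-gene endocrine list (vertical log axis) in libraries 1 to 10 (sedentary blue, exercise orange); bars are 95% exact Poisson intervals for the gene's count. Asic2 and Asb9 are level across the sedentary libraries, while sedentary 1 lies above all exercise libraries for Gem (331) and Nptx2 (38.0) and inside their range for Klhdc8a (76.0). The Nptx2 interval in sedentary 1 (15.3 to 78.2) overlaps the exercise range.

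Fitted log2 fold changes followed these patterns. With scaling to the endocrine list over all 10 libraries they were 2.07 for Asic2, 2.09 for Asb9, 1.34 for Klhdc8a, 0.97 for Nptx2 and -0.40 for Gem. This scaling moved the median of all genes to -2.15, against -0.00072 with TMM factors. In the 8 libraries without sedentary 1 and 2, a combination chosen after seeing the data, the endocrine scaling gave 2.22 for Asic2, 2.06 for Asb9, 2.22 for Klhdc8a, 2.89 for Nptx2 and 1.25 for Gem. The sign for Gem under endocrine scaling therefore changed when sedentary 1 and 2 were left out. Scaling to library totals left every member higher in exercise, from 1.24 for Gem to 2.51 for Asic2.

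**Figure D3:**
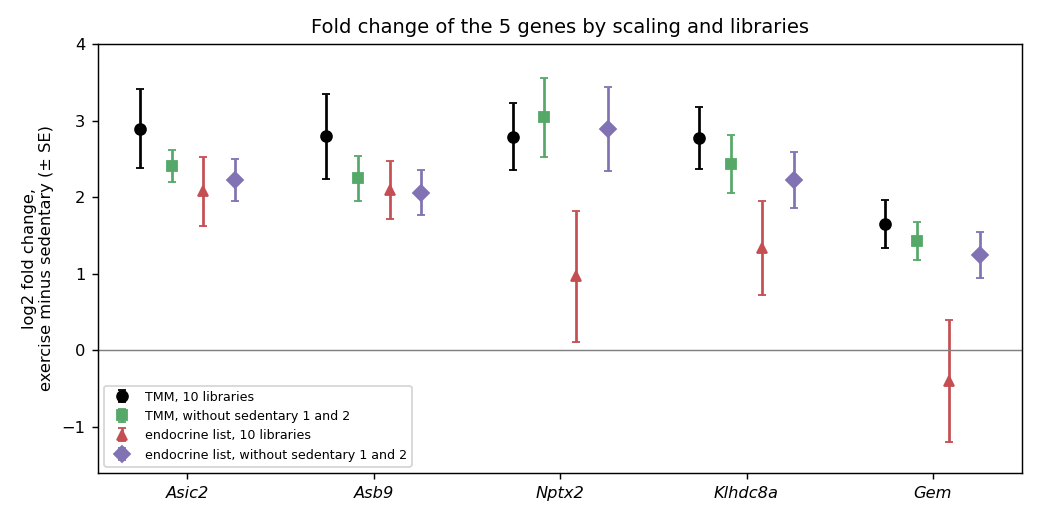
Log2 fold change of each gene, exercise minus sedentary, with SE, under TMM or endocrine-list scaling, with all 10 libraries or without sedentary 1 and 2. Estimates for Asic2 and Asb9 stay between 2.06 and 2.90 throughout. Those for Gem, Nptx2 and Klhdc8a are lowest with endocrine scaling of all 10 libraries (-0.40, 0.97 and 1.34). In the other settings shown they lie between 1.25 and 1.65 for Gem, 2.79 and 3.04 for Nptx2, and 2.22 and 2.78 for Klhdc8a.

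Among the members, Asic2 and Asb9 had the most similar profiles. Likeness was measured as the root mean square difference of log2 CPM over the 10 libraries after each gene's mean was taken off, ranked over 13933 genes, and it includes the contrast that chose the members. The difference between Asic2 and Asb9 was 0.437, and Asb9 ranked 4 from Asic2. Asic2 and Klhdc8a differed by 0.718, Nptx2 and Gem by 0.827, and Asic2 and Nptx2 by 1.17, the largest of the 10 pairs. The gene most like both Asic2 and Asb9 was Mdm1 (0.269 and 0.311), a microtubule-binding centriole gene, at 34.4 ± 23.2 CPM without and 213 ± 25.8 CPM with exercise. Galnt18, a mucin-type glycosyltransferase gene (0.358), and Rims3, of a family that acts at the presynaptic active zone (0.399), were next for Asic2. Rptoros (0.359) and Jhy (0.361) were next for Asb9. The genes most like Gem were Baiap2 (0.241), an adaptor of the actin cytoskeleton, the zinc finger gene Ikzf4 (0.260) and Wnt9a (0.265), a Wnt ligand.

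Klhdc8a and Nptx2 had no neighbour as close. The nearest to Klhdc8a were Sh3pxd2a (0.535), a scaffold of invasive actin structures, Slc2a13 (0.569), a proton-coupled inositol transporter, and Npas4 (0.584), a neuronal transcription factor induced by calcium entry. The nearest to Nptx2 were Klk1b24 (0.485), of the kallikrein cluster whose near copies make its reads uncertain, Map3k6 (0.515) and Plin4 (0.524), a lipid droplet gene on the glucocorticoid list used here. Klk1b24, Map3k6 and Plin4 were all highest in exercise 9, at 8.50, 12.1 and 9.85 CPM, as was Nptx2.

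Relatives and partners of the members were tested as genes the choice of members had not used. They came to 118 genes in 9 lists, of which 93 could be tested. Of these, 3 rose and 4 fell (adjusted p under 0.05 over all genes in edgeR's quasi-likelihood fit), beside 2.44% of all genes that were called higher and 11.4% called lower. Their median log2 fold change was 0.51, against -0.00072 over all genes tested. Without sedentary 1 and 2, 7 of 96 rose and 4 fell, beside 4.1% and 8.68% of all genes, with a median of 0.20 against 0.0259 over all genes.

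**Figure D4:**
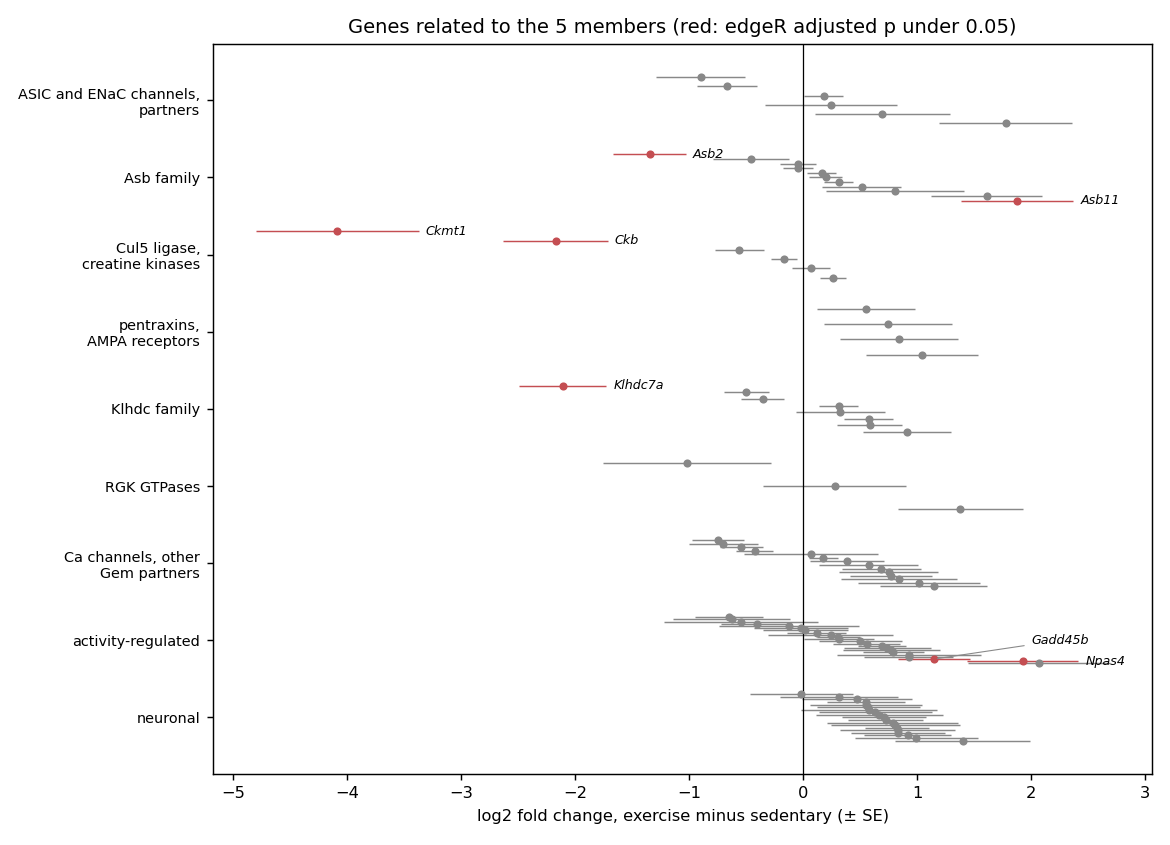
Log2 fold change (exercise minus sedentary, ± SE of the edgeR fit) of the 93 tested related genes, one row of points per list, a gene on 1 list only. Red points with names are the 3 genes that rose (Npas4, Asb11, Gadd45b) and the 4 that fell (Ckmt1, Ckb, Klhdc7a, Asb2); the other points did not pass.

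The remaining acid-sensing and epithelial sodium channel genes and their partners did not pass with all 10 libraries (0 of 6 tested in edgeR, 3 at an unadjusted p under 0.05, 1 higher in DESeq2 and 0 in limma-voom). Asic1, the main acid-sensing subunit of brain neurons, had 16.2 ± 11.7 CPM without and 19.3 ± 3.26 CPM with exercise (SD, n = 5 each), a log2 fold change of 0.25 ± 0.58 (SE; adjusted p = 0.769 in edgeR), and -0.30 without sedentary 1 and 2. Per kilobase Asic1 had 2.83 ± 2.04 CPM against 0.456 ± 0.287 for Asic2 in sedentary libraries, and 3.36 ± 0.569 against 3.42 ± 0.762 in exercise. The difference between these 2 levels in exercise was within their spread. Asic3 was at most 0.437 CPM in any library, and Asic4 was at 0 in all sedentary libraries. Neither could be tested. Scnn1g, the gamma subunit of the epithelial sodium channel, did not pass with all libraries (1.78 ± 0.58 SE, edgeR adjusted p = 0.0664) and passed without sedentary 1 and 2 (1.24, edgeR adjusted p = 0.00820); it was also the gene DESeq2 called, and is named after its value was seen.

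Of the Asb9 relatives, 11 of 17 family genes could be tested, of which 1 rose and 1 fell in edgeR. With all libraries 4 were at an unadjusted p under 0.05. DESeq2 called 3 higher and 1 lower, and limma-voom 1 higher and 0 lower. Asb11, of the same ligase family, had 1.37, 4.64, 11.9, 15.4 and 12.3 CPM in sedentary 1 to 5 and 32.0 to 35.0 CPM in exercise. The 5 exercise libraries lay close together and above all sedentary ones (log2 fold change 1.87 ± 0.49 SE, edgeR adjusted p = 0.0333; 1.37 without sedentary 1 and 2, adjusted p = 0.000975). Per 100000 endocrine marker counts Asb11 had 77.3 to 125 in sedentary and 168 to 224 in exercise libraries, again without overlap. Its call was lost without sedentary 2 or any 1 exercise library (highest edgeR adjusted p = 0.0727). Asb2 fell from 3.79 ± 1.66 to 1.48 ± 0.333 CPM (-1.35 ± 0.32 SE, edgeR adjusted p = 0.0224), a call lost without exercise 6, 7 or 8 (highest 0.0626).

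Transcripts of Ckb and Ckmt1, creatine kinases that pass phosphate between creatine and ATP, fell. Ckb is a known Asb9 target as a protein. Protein was not measured here, and a link between the transcript levels and Asb9 was not tested. Of 6 tested ligase partners and kinases 2 fell and 0 rose in edgeR, and 4 were at an unadjusted p under 0.05. DESeq2 called 1 higher and 2 lower, and limma-voom 0 higher and 2 lower. Ckb, the brain-type enzyme, had 222, 365, 80.3, 87.2 and 107 CPM in sedentary 1 to 5 and 58.4, 36.5, 42.5, 22.3 and 31.4 CPM in exercise 6 to 10. No exercise library reached the sedentary range, and sedentary 1 and 2 were highest. The log2 fold change was -2.17 ± 0.46 (SE, edgeR adjusted p = 0.0143), and -1.23 without sedentary 1 and 2 (adjusted p = 0.0103). Ckmt1, the mitochondrial form, had 700 and 1076 CPM in sedentary 1 and 2, 96.7 to 191 in sedentary 3 to 5 and 12.8 to 44.0 in exercise (-4.09 ± 0.72 SE, edgeR adjusted p = 0.00900; -2.55 without sedentary 1 and 2, adjusted p = 0.00228). Sedentary 1 and 2, where both kinases peaked, also had the highest intestinal sums, and the part of those transcripts in the fall was not tested. The scaffold gene Cul5 and its partners Rnf7, Elob and Eloc did not pass in edgeR.

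Pentraxin genes and the AMPA receptor subunits they bind did not pass (0 of 4 tested in edgeR, DESeq2 or limma-voom, and 0 at an unadjusted p under 0.05). Nptx1 had 8.85 ± 5.80 and 15.9 ± 2.27 CPM (a difference of 0.84 ± 0.51 on the log2 scale, SE, with adjusted p = 0.264 in edgeR), and the membrane-bound Nptxr 56.9 ± 41.1 and 95.1 ± 9.46 CPM (0.74 ± 0.56 SE, adjusted p = 0.353). Both were lowest in sedentary 1, at 1.20 and 7.11 CPM. Without sedentary 1 and 2 their log2 fold changes were 0.32 and 0.18. Per kilobase, Nptx1 (3.04 ± 0.435 CPM) and Nptxr (18.4 ± 1.83) stood above Nptx2 (1.21 ± 0.560) in exercise, so Nptx2 stayed the least abundant of the neuronal pentraxins.

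The kelch relatives of Klhdc8a held 1 change among 8 tested genes, the fall of Klhdc7a. It went from 3.05 ± 1.11 to 0.697 ± 0.260 CPM (-2.11 ± 0.38 SE, edgeR adjusted p = 0.00907; -1.78 without sedentary 1 and 2). Klhdc8b, the closest paralogue by name, had 8.55 ± 4.68 and 10.7 ± 1.62 CPM and did not pass (0.33 ± 0.39 SE, edgeR adjusted p = 0.552; -0.12 without sedentary 1 and 2).

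Of the 3 other RGK genes 0 passed with all 10 libraries in edgeR or limma-voom, and 1, Rem2, passed in DESeq2 and at an unadjusted p under 0.05. Rem2, known in neurons and beta cells, had 0.0598, 0.764, 1.50, 1.55 and 1.57 CPM in sedentary 1 to 5 and 2.12, 2.99, 3.57, 2.38 and 3.22 CPM in exercise 6 to 10. The groups did not overlap, and the test gave 1.38 ± 0.55 (SE, edgeR adjusted p = 0.111) with all libraries and 0.92 without sedentary 1 and 2 (adjusted p = 0.0332). Rem1 had 0.491 ± 0.367 and 0.593 ± 0.331 CPM (edgeR adjusted p = 0.761). Rrad had 1.37 ± 1.28 and 0.671 ± 0.534 CPM (edgeR adjusted p = 0.334), with 3.59 CPM in sedentary 1. Per kilobase, Gem was the most abundant RGK gene in exercise libraries, at 5.27 ± 1.73 CPM against 1.27 ± 0.265 for Rem2. Among 14 tested calcium channel subunits and other Gem partners 0 passed in edgeR with all 10 libraries and 0 without sedentary 1 and 2. With all libraries 5 were at an unadjusted p under 0.05, and DESeq2 called 3 lower and limma-voom 0. Cacnb2, a beta subunit that RGK proteins bind, had 11.3 ± 8.11 and 22.9 ± 0.890 CPM (1.02 ± 0.53 SE, edgeR adjusted p = 0.203). Cacnb3, the other beta subunit named here, had 26.4 ± 12.6 and 34.5 ± 3.87 CPM (0.39 ± 0.32 SE, adjusted p = 0.394; -0.0197 without sedentary 1 and 2).

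Of the listed genes of neurons, 0 of 19 tested passed singly in edgeR with all libraries. Their median log2 fold change was 0.71, against -0.00072 over all genes tested. Without sedentary 1 and 2 it was 0.27, against 0.0259 over all genes. A shift of the list as a whole was not tested. With all libraries 3 were at an unadjusted p under 0.05, DESeq2 called 1 higher (Stx1a, named after its value was seen) and limma-voom 0. In those 8 libraries 2 of 20 rose, Gad1 (0.82, edgeR adjusted p = 0.00198) and Uchl1 (0.47, adjusted p = 0.0222), both named after their values were seen. Of the defining markers of autonomic neurons, 3 are given here and were near 0. Slc17a6 reached at most 0.0432 CPM in sedentary and 0.0651 in exercise libraries, Dbh 0.120 and 0.173, and Chat 0.273 and 0.342. The summed list of 10 such markers was mostly Th and Elavl4. It lay between 6.99 and 38.0 CPM in sedentary and 33.2 and 46.8 with exercise (exact permutation, adjusted p = 0.171). This sum passed as higher in exercise without sedentary 4 (exact permutation, adjusted p = 0.0476), and not when any other single library was left out. Sox10, a marker of the Schwann cells that wrap islets, was at 0.164 to 0.392 CPM in sedentary and 0.335 to 1.17 in exercise libraries. The summed Schwann list, 48.3 to 262 CPM in sedentary and 31.1 to 46.9 in exercise libraries, was lower in exercise (exact permutation, adjusted p = 0.0317) and mostly Erbb3 (35.1 to 257 and 16.3 to 31.0 CPM), which epithelia also express.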

How the data were processed

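RNA-seq of 10 islet libraries was analysed. Per the labels' protocols, RNA was isolated with a small-sample column kit and made into stranded mRNA libraries. The authors deposited estimated counts per Ensembl gene, and the submitters' processing notes name fastp and kallisto without versions. The labels give neither a genome build nor an annotation release nor how transcripts were summed. Estimated counts were rounded (12.6% were not whole, tolerance 1e-06). Symbols were matched for 98.3% of genes with a count. The fit across genes used edgeR 4.0.16 (quasi-likelihood, R 4.3.3) with the package's filter (minimum count 10, minimum total 15; 15298 genes), TMM scaling and Benjamini-Hochberg adjustment over all tested genes at 0.05. Log2 CPM used a prior count of 2. Exact permutation tests compared the marker sums. Intervals on counts include counting error and nothing else, and the labels name no molecular identifiers.

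The members, the gene lists, the tests and the rule for named genes were chosen with earlier results of these data known. Named were the members, up to 5 genes past the threshold of each related list, 16 relatives whatever they showed, and the 3 genes of most similar profile per member; others are said to be named after their values were seen. Alternatives were other scalings and filters, unrounded counts, DESeq2 1.42.0, limma-voom (limma 3.58.1), the 8 libraries without sedentary 1 and 2, and leaving out each library. Recovery of known changes by the edgeR code was tested on simulated data. Values of some single genes are not reported here. Merged exon lengths came from GENCODE release M21.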

Additional observations from a re-analysis of the deposited data

Results flagged for a closer look

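In 10 of 80 groups of 5 libraries examined for the values of the members, named relatives and marker lists, 1 library stood far from the other 4, where chance gives about 1 group in 20. The groups share libraries, and some hold the same gene as CPM and per endocrine count. They are therefore not independent, and no excess over chance is read from this number. Among these values, some concern exercise 9: Gem at 17.5 CPM against 8.25 to 10.4 in the others, the same gene at 113 counts per 100000 endocrine marker counts against 51.3 to 57.4, and Nptxr at 78.6 CPM against 96.3 to 102. The Schwann list also stood apart in exercise 9, at 46.9 summed CPM against 31.1 to 33.6. Asb9 was low in exercise 10, at 2.34 CPM against 4.30 to 4.95 and at 14.8 per 100000 endocrine counts against 24.1 to 27.9. Gem was low in sedentary 2, at 1.47 CPM against 3.65 to 4.38. In sedentary 1, Gem was at 331 and Klhdc8a at 76.0 per 100000 endocrine counts, against 24.3 to 34.1 and 10.5 to 25.3 in sedentary 2 to 5, and Rrad was at 3.59 CPM against 0.273 to 1.13.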

How the results depend on the processing

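No paired analysis was possible because the libraries are numbered 1 to 10 with no number shared by the groups. The log2 fold changes of the 5 members kept their direction under every alternative run except Gem with endocrine scaling of all 10 libraries (-0.40), where Nptx2 (0.97) and Klhdc8a (1.34) also moved. Leaving out 1 library gave 2.62 to 3.11 for Asic2, 2.51 to 3.06 for Asb9, 2.59 to 2.99 for Nptx2, 2.54 to 2.98 for Klhdc8a and 1.45 to 1.78 for Gem. Counts over all genes depended more on the choices. Against 374 higher and 1745 lower, library totals gave 159 and 4408, endocrine scaling 26 and 8245, DESeq2 1097 and 2642 and limma-voom 177 and 339. The 8 libraries without sedentary 1 and 2 gave 644 higher, and 163 with endocrine scaling. Leaving out 1 library gave 132 (without exercise 7) to 889 (without sedentary 4) higher and 800 (without exercise 8) to 2721 (without sedentary 4) lower. Against 3 related genes higher and 4 lower, RLE size factors gave 6 higher, DESeq2 12 and 7, endocrine scaling 0 and 22, library totals 15 lower, the 8 libraries 7 higher, or 5 with endocrine scaling. Leaving out 1 library gave 0 to 9 higher (0 without sedentary 2 or exercise 6, 7, 8 or 9) and 3 to 7 lower.

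Relatives that did not pass changed sign in places. With library totals Asic1 was at -0.10, Rem1 -0.10, Klhdc8b -0.013 and Fos -0.20. With endocrine scaling of all libraries Asic1 was at -0.47, Nptxr -0.012, Rem1 -1.82, Klhdc8b -0.85, Cacnb3 -1.03, Fos -2.16 and Gadd45b, which had passed, -0.46. Without sedentary 1 and 2 Asic1 was at -0.30, Klhdc8b -0.12, Cacnb3 -0.020 and Arc 0.00265, and with endocrine scaling of these libraries Asic1 -0.50, Nptxr -0.019, Klhdc8b -0.32 and Cacnb3 -0.22. Arc was at 0.058 with upper-quartile scaling and 0.12 with limma-voom, against -0.019. Leaving out 1 library gave -0.048 to 0.60 for Asic1, -0.069 to 0.29 for Fos and -0.25 to 0.25 for Arc. As mean log2 CPM the Schwann list differed by 0.44, alpha, delta and PP cells by 0.50, stroma by -0.049 and macrophages by 0.45, each opposite to its summed CPM. Without sedentary 1 and 2 the summed differences were -2132 CPM for beta cells, -25.0 for stroma and -6.87 for endothelium. Leaving out 1 library gave -2327 to 2285 CPM for alpha, delta and PP cells, -84.1 to 60.2 for macrophages and -16.8 to 26.4 for stroma. In the 8 libraries the exact permutation p cannot go below 0.0179, so that after adjustment over 12 lists the marker sums could hardly pass, and no lost call is read from their adjusted p (0.214 for acinar, 0.107 for intestinal and Schwann sums). Among named relatives, Asb11 and Npas4 no longer passed with endocrine scaling of all libraries, Asb2 with limma-voom, and Gadd45b with library totals, limma-voom and both fits of 8 libraries. Rem2 passed with DESeq2, in the 8 libraries and without sedentary 1, and Rrad as lower with endocrine scaling. The causes were not tested. Members with under 10 counts in a library (Asic2, Asb9 and Nptx2) are poorly determined there.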

Other observations

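Of 25 activity-regulated genes, which in neurons rise within minutes to hours of calcium entry, 22 could be tested, 2 rose and 0 fell in edgeR, beside 2.44% of all genes that were called higher and 11.4% called lower. At an unadjusted p under 0.05 there were 6, and DESeq2 called 5 higher and limma-voom 1. Rgs2, a regulator of G protein signalling named after its value was seen, had a larger fold difference than either call but did not pass, at 140 ± 96.8 and 585 ± 212 CPM (2.07 ± 0.62 SE, edgeR adjusted p = 0.0511). It passed without sedentary 1 and 2 (1.51, edgeR adjusted p = 0.0135). Npas4 had 0.657, 1.20, 4.77, 5.31 and 2.50 CPM in sedentary 1 to 5 and 9.22, 13.3, 11.3, 11.6 and 9.62 CPM in exercise 6 to 10. The groups did not overlap (log2 fold change 1.92 ± 0.49 SE, edgeR adjusted p = 0.0293; 1.41 without sedentary 1 and 2, adjusted p = 0.00492). The call was lost without sedentary 2 or 5 or any 1 exercise library (highest edgeR adjusted p = 0.0711). Gadd45b, a growth arrest and stress gene, rose from 14.6 ± 5.21 to 32.4 ± 13.3 CPM (1.15 ± 0.32 SE, edgeR adjusted p = 0.0393), but was lower by 0.46 with endocrine scaling of all 10 libraries, where the median gene was lower by 2.15. Its call was lost without sedentary 1, 2 or 5 or exercise 6, 7, 8 or 9 (highest edgeR adjusted p = 0.0869) and without sedentary 1 and 2 (adjusted p = 0.0785). Fos had 22.1 ± 6.40 and 23.9 ± 8.03 CPM (edgeR adjusted p = 0.753) and Arc 1.12 ± 0.562 and 1.10 ± 0.350 CPM (adjusted p = 0.977 in edgeR). Bdnf did not pass the filter on low counts, with means of 0.399 ± 0.389 and 0.470 ± 0.0902 CPM.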
